A study of Homo sapiens with 4 samples.

Results

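KITLG, LIF, EDN2 and GDF15 encode secreted factors that have been linked to p53, and the peaks at these 4 of 59679 annotated genes were read from 2 p53 peak lists. The genes were grouped by function with their peaks already known, and a peak was counted at up to 10 kb from either end of the gene, or inside it (RefSeq spans, build hg38). By that rule 3 of the 2008 R273H peaks and 3 of the 2059 wildtype peaks belonged to the group, 1 per list at each of KITLG, LIF and EDN2 and none at GDF15. The lists came from chromatin immunoprecipitation with sequencing (ChIP-seq), which maps where a protein sits on DNA. The cells were HCT116, a colorectal carcinoma line, grown as spheroids in medium holding 20 ng/ml of epidermal growth factor and 20 ng/ml of basic fibroblast growth factor, and used at passages 13 to 18. One genotype carried p53-R273H, a change of an arginine that contacts DNA, and the other was a wildtype control. Each genotype had 1 library made with the p53 antibody DO-1, which binds the N-terminal part present in both proteins, and 1 input library. How R273H was introduced, and whether either line is a single clone, is not stated in the labels. With 1 ChIP library per genotype there is no replicate check, so no test was made and the values are descriptions. The lists give no read depth.

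p53 is a transcription factor that binds paired copies of a short motif, the p53 decamer, and switches on stress response genes, among them genes for proteins that leave the cell and act on neighbours. KITLG (stem cell factor) is the ligand of the receptor tyrosine kinase KIT. LIF is a cytokine of the interleukin 6 family that signals through LIFR and IL6ST and is known for keeping mouse embryonic stem cells undifferentiated. EDN2 is a vasoconstrictor peptide precursor whose product, released by endothelin-converting enzymes, acts on EDNRA and EDNRB. GDF15 is a stress-induced member of the transforming growth factor beta superfamily that acts through GFRAL and RET.

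The peaks at KITLG, LIF and EDN2 lay inside the genes, and none of the peaks at the group fell on a promoter window (250 bases before to 50 after the start site) where one was at hand. These windows came from RefSeq (GRCh38.p14) for 3 of the 4 genes; LIF had no entry. They are printed 5′ to 3′ on the gene's strand, because no peak at these genes reached them. The nearest peak edge to the KITLG window was 20356 bp away (R273H) and 20209 bp away (wildtype). For EDN2 the gaps were 1879 bp (R273H) and 1852 bp (wildtype), and for GDF15 they were 11595 bp (R273H) and 11619 bp (wildtype). Capitals mark TATAAA on either strand and the p53 decamer with at most 1 mismatch outside its C and G core. The decamer reads the same on both strands.
KITLG promoter, chr12:88580422-88580721, minus strand: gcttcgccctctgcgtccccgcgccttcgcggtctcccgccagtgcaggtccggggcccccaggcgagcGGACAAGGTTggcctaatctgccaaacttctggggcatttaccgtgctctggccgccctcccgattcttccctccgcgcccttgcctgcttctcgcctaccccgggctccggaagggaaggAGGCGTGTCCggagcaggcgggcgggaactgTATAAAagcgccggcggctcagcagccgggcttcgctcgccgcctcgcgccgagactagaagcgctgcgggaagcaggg
EDN2 promoter, chr1:41484634-41484933, minus strand: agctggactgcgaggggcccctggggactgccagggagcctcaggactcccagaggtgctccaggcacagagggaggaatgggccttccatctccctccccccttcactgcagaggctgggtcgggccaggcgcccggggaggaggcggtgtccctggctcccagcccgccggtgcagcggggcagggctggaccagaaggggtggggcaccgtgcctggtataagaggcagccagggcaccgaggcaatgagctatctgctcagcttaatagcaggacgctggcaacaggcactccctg
GDF15 promoter, chr19:18385908-18386207, plus strand: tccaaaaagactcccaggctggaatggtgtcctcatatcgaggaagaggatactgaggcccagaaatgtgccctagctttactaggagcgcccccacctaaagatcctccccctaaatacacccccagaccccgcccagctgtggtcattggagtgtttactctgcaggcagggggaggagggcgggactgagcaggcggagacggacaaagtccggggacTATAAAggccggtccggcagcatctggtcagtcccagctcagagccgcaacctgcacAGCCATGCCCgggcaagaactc

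No window held the decamer without a mismatch, a match present in 6.63% of the 35116 promoters. With 1 mismatch, a setting chosen after the data were seen, KITLG held 2 matches, beginning 181 and 60 bases before the start site. GDF15 then held 1, beginning at base 29 of the transcript, and EDN2 none. Such a match is common, since 45.1% of all promoters hold at least 1. Neither KITLG nor GDF15 held a pair of such decamers 0 to 13 bases apart, which 1.84% of promoters do. TATAAA began 29 bases before the start in both KITLG and GDF15, was not found in EDN2, and occurs in 11.5% of promoters on either strand. A match is a description of letters and not a binding site. The sequence under the peaks was not used here.

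At EDN2 the R273H and wildtype peaks had nearly the same position. The R273H peak ran from 41482193 to 41482755 on chromosome 1 (563 bp, score 532.97) and the wildtype peak from 41482156 to 41482782 (627 bp, score 793.97). The R273H peak lay wholly within the wildtype one and their midpoints were 5 bp apart, against a median of 35.5 bp over all shared R273H peaks. EDN2 spans 5909 bp, from 41478775 to 41484683, and both midpoints lay inside it, 2209 bp (R273H) and 2214 bp (wildtype) from the start site. The score is the authors' own, its scale is not given, and it orders peaks only within a list. The EDN2 peak ranked 74 of 2008 in the R273H list, where 3.69% of peaks scored as high or higher. In the wildtype list it ranked 131 of 2059, or 6.36%. It was isolated, with the next peak more than 1 Mb away on either side in each list, the closest at 1050328 bp (R273H) and 1050237 bp (wildtype).

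At KITLG, the longest of the 4 genes at 87679 bp (chromosome 12, 88492793 to 88580471), both lists had 1 peak. The R273H peak (88559735 to 88560066, 332 bp, score 115.47) lay wholly within the wildtype peak (88559701 to 88560213, 513 bp, score 526.62). Their midpoints were 56.5 bp apart and lay 20570 bp (R273H) and 20514 bp (wildtype) downstream of the start site. Both peaks also lay inside LOC124902979, an uncharacterised lncRNA gene that overlaps KITLG, so the lists do not tell which of the overlapping genes a peak belongs to. The R273H peak ranked 319, with 15.9% of that list at or above it, and its score was under the 143 that is the median of the shared R273H peaks. The wildtype peak ranked 190 (9.23%), and its score was above the wildtype shared median of 396. No other peak of either list lay within 1 Mb of the gene.

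LIF had the lowest-scoring and narrowest peaks of the group in both lists. The R273H peak ran from 30245787 to 30245992 on chromosome 22 (206 bp, score 70.46) and the wildtype peak from 30245720 to 30245917 (198 bp, score 130.51). They overlapped by 131 bp, which is 63.6% of the R273H peak and 66.2% of the wildtype peak, and neither contained the other. Their midpoints were 71 bp apart and lay 869 bp (R273H) and 940 bp (wildtype) inside the higher-coordinate end of the gene (30240453 to 30246759, 6307 bp). The widths were below the medians of shared peaks, 397 bp (R273H) and 527 bp (wildtype). The R273H peak ranked 728, with 36.3% of the list at or above it, and the wildtype peak ranked 468, with 22.7%. Both scores were below the medians of shared peaks. The antisense gene LIF-AS2 lay 218 bp from the R273H peak and 293 bp from the wildtype peak. LIF-AS1 lay 5249 bp (R273H) and 5182 bp (wildtype) away, so the same peak falls within 10 kb of all 3 genes.

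GDF15 had no peak within 10 kb, but it stood just outside the limit. Its nearest peak was 11845 bp (R273H) and 11869 bp (wildtype) from the gene, while the peaks of KITLG, LIF and EDN2 were at 0 bp. This peak, on the upstream side of the gene (chromosome 19, 18386158 to 18389176), had the highest score near any of the 4 genes in either list. It ran from 18373578 to 18374313 in the R273H list (736 bp, score 819.95) and from 18373454 to 18374289 in the wildtype list (836 bp, score 2014.62). It ranked 48 in each list, with 2.39% of R273H peaks and 2.33% of wildtype peaks at or above it. The peaks overlapped by 712 bp. Farther upstream lay another shared pair, at 18364262 to 18365221 in the R273H list (960 bp, score 419.21, rank 94) and 18364241 to 18365721 in the wildtype list (1481 bp, score 869.36, rank 117). It was 20937 bp (R273H) and 20437 bp (wildtype) from GDF15. The farther pair lay inside PGPEP1, a pyroglutamyl peptidase gene, and the nearer pair lay between the genes, 3628 bp (R273H) and 3504 bp (wildtype) from PGPEP1, which is the closer gene. Which gene either pair acts on, if any, was not tested. MIR3189, a microRNA gene inside GDF15, was 12249 bp (R273H) and 12273 bp (wildtype) from the nearer peak.

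**Figure D1:**
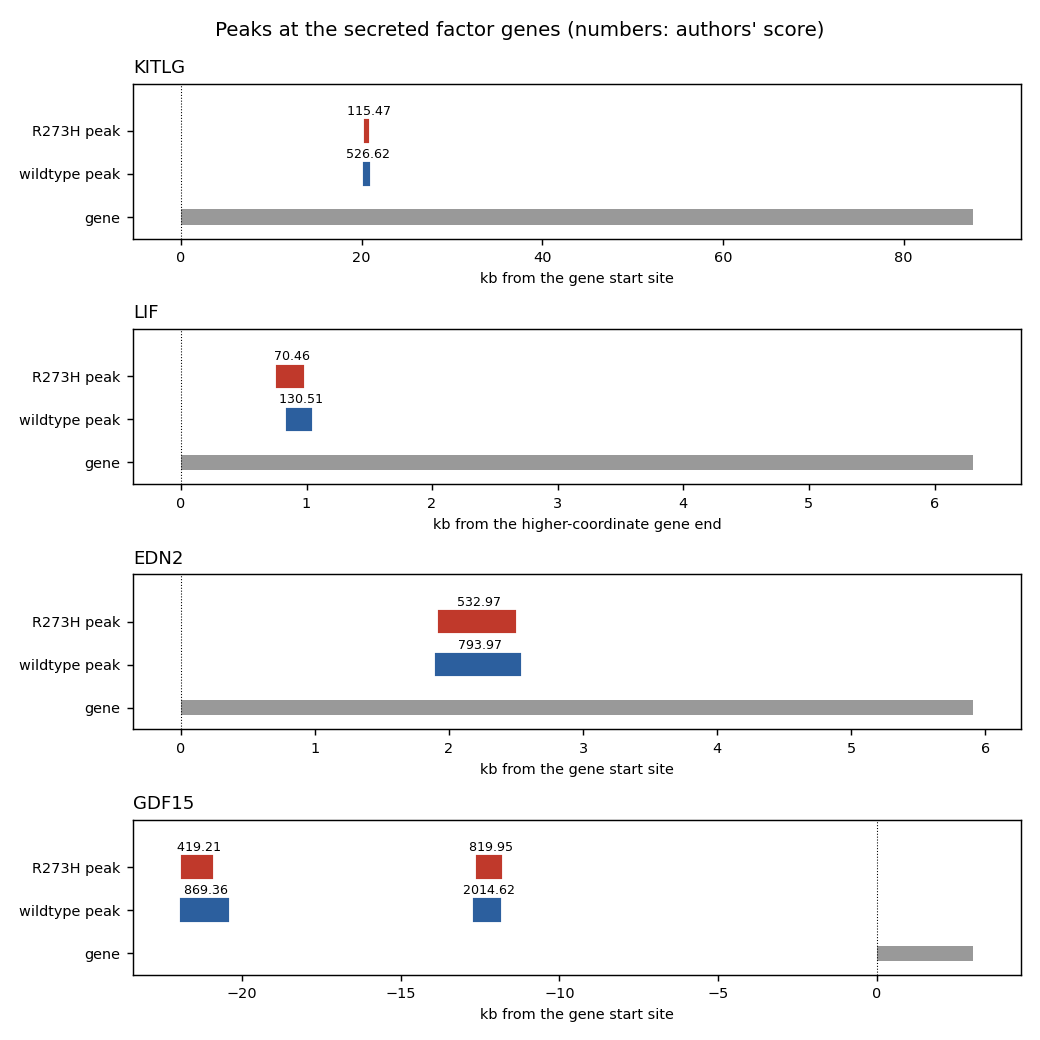
Peaks of the R273H list (red) and the wildtype list (blue) above each gene (grey bar), with the authors' score over each peak and the distance in kb from the start site on the x axis, or for LIF from the higher-coordinate gene end. The KITLG, LIF and EDN2 peaks sit inside the genes, and the GDF15 peaks start 11845 bp (R273H) and 11869 bp (wildtype) upstream of it.

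**Figure D2:**
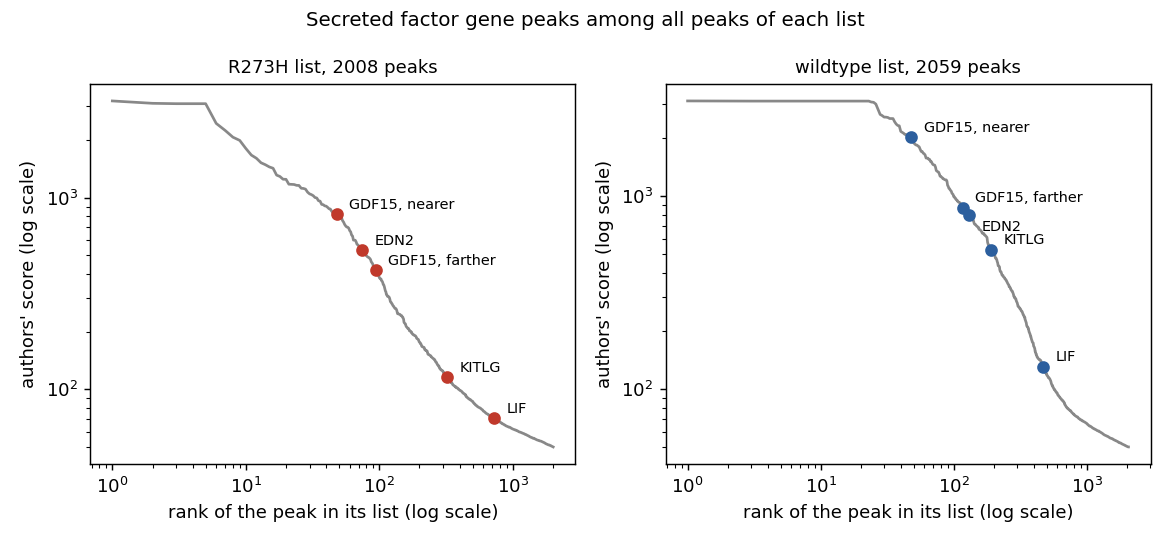
The authors' score of every peak (y axis, log scale) against its rank (x axis, log scale) in the R273H list and the wildtype list, with the peaks at the 4 genes as points. In both lists the nearer GDF15 peak stands highest, at rank 48, and LIF lowest, at rank 728 (R273H) and 468 (wildtype).

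The group's peaks were shared between the lists at each of the 3 genes that had one. Over the whole lists, 21.9% of R273H peaks and 21.2% of wildtype peaks had an overlapping partner. A peak within 10 kb was found at 3 of the 4 genes in each list, while over all annotated genes the shares were 2.36% (R273H) and 3.48% (wildtype). Among 20037 protein-coding genes the shares were 3.09% (R273H) and 4.83% (wildtype), while 1.13% had a shared R273H peak within 10 kb and 0.789% had one inside the gene. Gene length bears on such shares. Of the protein-coding genes up to 10 kb long, the class of LIF, EDN2 and GDF15, 1.93% carried a peak of the R273H list and 2.86% one of the wildtype list, and of those 50 to 150 kb long, the class of KITLG, 3.6% and 6.18% did in the same order. Within 25 kb, where GDF15 is included, 4.26% of protein-coding genes carried an R273H peak, 7.12% a wildtype one, and 1.63% a shared R273H peak. Since the group was drawn up with these peaks known, nothing is read from its own count.

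Most peaks of both lists lay off the promoter windows. Each window is only 300 bp long, so this is not read as avoidance of promoters. Of the R273H peaks 26, or 1.29%, overlapped any RefSeq promoter window, and of the wildtype peaks 59, or 2.87%. Among shared peaks the R273H and wildtype shares were 4.55% and 5.03%. All 4 genes lay far from chromosome ends, the closest being GDF15, 18.4 Mb from one.

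The genes nearest to each member in rank were looked up among the 227 protein-coding genes with a shared R273H peak within 10 kb. Likeness was the distance between ranks, each as a percentage of its list, over the 2 lists. Nearest to EDN2 were CAMK2D, a calcium/calmodulin-dependent kinase gene (R273H score 664.52, wildtype score 915.05, distance 1.13), and NSMCE2, a SUMO ligase gene (789.8 and 856.81 in the same order, distance 1.24). KITLG was nearest to CEP85L (124.64 and 587.31, distance 1.13) and PSD3 (126.16 and 458.67, distance 1.76), again with the R273H score first. LIF stood less close to any gene, with CCDC30 (76.06 in R273H and 121.11 in wildtype) at a distance of 5.49 and C12orf42 (75.14 in R273H and 165.5 in wildtype) at 5.91.

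The receptors and processing enzymes of the 4 factors carried no peak. Among all protein-coding genes only 3.09% (R273H) and 4.83% (wildtype) had one within 10 kb. Having none at 9 genes is near those shares, so nothing about receptors is read from it. None of KIT, LIFR, IL6ST, EDNRA, EDNRB, ECE1, ECE2, GFRAL and RET had one within 10 kb in either list, 0 of 9 genes, for which the exact 95% binomial interval reaches 33.6%. Their nearest R273H peaks were 116 kb (ECE1, an endothelin-converting enzyme gene) to 4710 kb (EDNRA) away, and their nearest wildtype peaks 172 kb (RET) to 5970 kb (EDNRB). The intervals cover counting error only. They treat the genes as independent draws, which genes of chosen lists are not, so they serve as description.

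Relatives of the factors had none within 10 kb, 0 of 19 genes in each list (upper bound 17.6%). This is near the 3.09% (R273H) and 4.83% (wildtype) of all protein-coding genes, and nothing is read from it. Among the relatives OSM, a cytokine gene of the LIF family, had its nearest peaks inside LIF, 16.8 kb (R273H) and 16.9 kb (wildtype) away. IL6 lay 18.9 kb from an R273H peak without a partner (score 80.2), and its nearest wildtype peak was 957 kb away. IL11 lay 19.9 kb from a wildtype peak without a partner (73.97), with the nearest R273H peak at 969 kb. The other endothelin genes, EDN1 and EDN3, had no peak within 100 kb in either list.

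Of 15 other genes, mostly of secreted factors, linked to p53 or to growth control, none had an R273H peak within 10 kb and 2 had a wildtype peak. FGF2, the gene of the basic fibroblast growth factor also added to the medium, had a wildtype peak inside it (score 59.67) that overlapped no R273H peak. FAM20C, a secretory pathway kinase gene, had a pair of wildtype peaks inside it, the higher at 164.23, and its nearest R273H peak was 729 kb away. FAM20C begins at position 192571 of chromosome 7, close to a chromosome end. CX3CL1 and THBS1 were among those with none within 10 kb. A further set held 9 ligand and receptor genes of the epidermal and fibroblast growth factor families, to which the factors in the medium belong. Of these, FGFR4 had a low-scoring R273H peak 6.16 kb away (53.94) and FGFR1 a wildtype peak 4.49 kb away (61.9), neither shared. Over all 52 of these other genes, 1 had an R273H peak (1.92%, exact 95% binomial interval 0.0487 to 10.3) and 3 a wildtype peak (5.77%, 1.21 to 15.9). These shares are near the 3.09% and 4.83% of all protein-coding genes. The median distance to the nearest peak was 868 kb (R273H) and 535 kb (wildtype) for the 52 genes, beside 896 kb and 512 kb for all protein-coding genes.

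Some of the 52 other genes, with no shared peak within 10 kb, had a shared peak within 50 kb, a distance chosen after the data were seen. TGFA, an epidermal growth factor receptor ligand gene, lay 42.7 kb from the R273H peak with the second highest score (chromosome 2, 70596538 to 70597740, score 3113.91) and from its wildtype partner, tied with other peaks at 3100. The gene nearest to that R273H peak was LOC124907824, 26132 bp away. TNFSF9, the gene of a ligand that costimulates T cells, lay 41.3 kb from an R273H peak (score 760.94, rank 53) and 41.2 kb from its wildtype partner (1569.5, rank 64), with CD70, another gene of the tumour necrosis factor family, 3779 bp from the R273H peak. FGF2 lay 28.0 kb from a shared pair scoring 481.67 in the R273H list (rank 85) and 1056.15 in the wildtype list (rank 96). Together with OSM, whose shared peak is the one inside LIF, 4 of the 52 other genes (7.69%) had a shared R273H peak within 50 kb, beside 2.5% of protein-coding genes. The gene lists were chosen with earlier results known and OSM counts only through the LIF peak, so nothing is read from this share. A peak at this distance need not act on the gene, and whether it does was not tested.

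**Figure D3:**
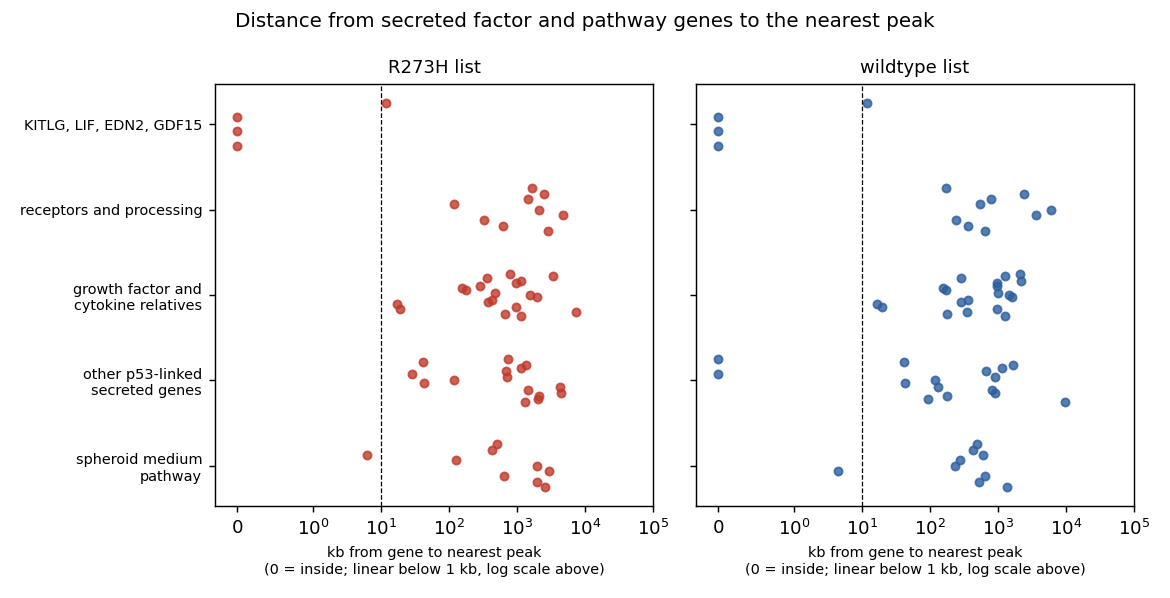
Distance in kb from each gene to its nearest peak (x axis, linear below 1 kb and log above, 0 inside the gene) in the R273H list and the wildtype list, 1 point per gene, by gene list; the dashed line marks 10 kb. KITLG, LIF and EDN2, grouped with their peaks known, lie at 0 and GDF15 just past 10 kb in both lists. All 9 receptor and processing genes lie beyond 100 kb, as most genes do. Of 20037 protein-coding genes, 2117 had an R273H peak within 100 kb and 3316 a wildtype one.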

How the data were processed

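The study deposited 2 peak lists, each named for 1 p53 ChIP library of HCT116 spheroid cells (R273H and wildtype control); crosslinking took 5 minutes in 1% formaldehyde, per the labels' protocols. The submitters' processing notes name the tools Bowtie 1.2.2, MACS and HOMER and the build hg38, with no role for any. Neither the peak threshold nor how the input was used is stated there. Each deposited list gives position, peak name and the authors' score, whose scale is not given. Sample descriptions name the lists inconsistently, so lists were assigned by their names to the ChIP sample titles. Peaks numbered below 193 (R273H, 8.73% of the highest number) and 228 (wildtype, 9.93%) were not analysed here. Absences of a peak, nearest distances, ranks and sharing therefore hold for the analysed peaks only.

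Distances ran from the nearest peak edge to the RefSeq gene span of GRCh38.p14, without exons. All 56 fixed symbols matched it. Peaks were shared at 1 bp of overlap. Promoter windows were scanned on both strands for TATAAA and the p53 decamer. The members and gene lists were chosen with earlier results of these data known. Named were all members with their peaks or nearest peaks and the genes near these, listed genes with a peak, and the 2 genes nearest in rank to each member with a shared peak. Listed genes without a peak within 10 kb, and peaks up to 50 kb from a gene, were added afterwards. Distance and overlap counting were tested on simulated data. Python 3.11.15, pandas 2.3.3 and scipy 1.17.1 were used. Other distances, score filters and overlap rules were tried.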

Additional observations from a re-analysis of the deposited data

How the results depend on the processing

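Of 73 values recomputed under other settings, 48 kept their value within the limits set and 25 moved. Many of the kept values are counts, sharing and distances at the 4 genes. These genes were grouped with their peaks known, so such values are no check on the group. The number of the 4 genes with a peak stayed within 1.5 times of 3 in each list under every distance and score filter tried; at a score of 100 the R273H count was 2, without LIF, and within 25 kb it was 4 in each list, with GDF15. The 3 shared sites were shared under every overlap rule. No paired analysis was possible because each genotype had 1 ChIP library. To peak midpoints, GDF15 was 12213 bp (R273H) and 12287 bp (wildtype) away. With only peaks within 100 kb of a gene, the share at or above each peak was larger; the cause was not tested. In the R273H list it was 26.2% for KITLG, 47.3% for LIF, 6.28% for EDN2, and 4.18% and 8.02% for the nearer and farther GDF15 peaks. In the wildtype list it was 11.7% for KITLG, 28.5% for LIF, 8.08% for EDN2 and 7.26% for the farther GDF15 peak. The other 52 genes had 1 with an R273H peak, which became 0 within 2 kb, within 5 kb, inside the gene, at or above the list's median score, or at a score of 100. It became 3 within 25 kb and 6 within 50 kb or 100 kb. Their wildtype count of 3 became 5, 7 and 8 within 25, 50 and 100 kb, and 1 under either score filter. Promoters with a decamer numbered 0 without a mismatch and 2 with 1 mismatch.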
